A study of Mus musculus with 18 samples.

Results

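The livers of 6 tumour-bearing mice with hepatocyte Stat3 deleted were compared with the livers of 6 control wild-type (WT) mice, across all genes expressed. These are 12 of the 18 livers of the series, and they were chosen by sample title alone (AlbCre;Stat3f/f PDAC against WT Ctrl). The design text writes the genotype of the first group as Alb-Cre+/+;Stat3f/f. This is a floxed Stat3 gene with a Cre recombinase driven by the albumin promoter, which is active in hepatocytes. Which other cells of the liver kept Stat3 was not tested. The tumour is a pancreatic ductal adenocarcinoma (PDAC) grown from PDA.69, a cell line from the KPC mouse model of pancreatic cancer that the labels call Tcelllow; the labels list this cell line for the control livers as well, although the design text calls those mice controls. The remaining 6 livers came from tumour-bearing WT mice and are used here for the spread and for side-by-side values. The labels used here give no age, sex, tumour site or time. There is no group of tumour-free mice with the deletion, so tumour and genotype differ together between the groups compared and their effects cannot be told apart.

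STAT3 is the transcription factor through which interleukin 6 (IL-6) and its relatives switch on acute-phase genes in hepatocytes, which secrete serum amyloid A, orosomucoid, complement and clotting proteins into the blood. Interferons act on the same cells and switch on antiviral genes, immunity-related GTPases that act on the membranes around intracellular microbes, and the genes for peptide presentation on MHC class I. The comparison asks which genes still differed from a control liver, or differed in a way not seen in tumour-bearing WT liver, when hepatocytes lacked Stat3.

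Counts came from 3′ tag sequencing, in which a transcript is counted by its end. Library totals ran from 5212265 to 7159148 counts in the control group and from 7222882 to 9545442 in the Stat3-deleted group, so the ranges did not overlap. Within groups the median correlation of a library with its own group was 0.932 to 0.971 on the log2 scale. The lowest was tumour-bearing WT replicate 6 (0.932, next 0.944), which also had the lowest TMM scaling factor (0.750, next 0.890). Albumin, which marks hepatocytes, was at 18562 to 51602 CPM (a count divided by its scaled library total) in controls and 50145 to 63309 in Stat3-deleted livers (log2 fold change 0.71 ± 0.24, SE, adjusted p = 0.0897). The erythroid (3 tested), acinar pancreas (1) and pancreatic ductal tumour (6) lists mark cells that could enter the sample. They had no member past the test by edgeR, DESeq2 or limma. In the ductal tumour list 1 member had an unadjusted p under 0.05. The 4 Y-linked genes, which mark sex, were read in every liver and had no member past the test by these tools either. Their summed level was 153.1 to 206.6 CPM in controls, 147.5 to 185.8 in Stat3-deleted and 157.8 to 250.1 in tumour-bearing WT livers. In whole liver, fewer cells of a type and less RNA per cell cannot be told apart.

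Of 11218 genes tested, 544 (4.85%) passed the test between Stat3-deleted and control livers at an adjusted p under 0.05; such genes are called higher or lower below. The calls comprised 246 higher (2.19%) and 298 lower (2.66%), and 224 of them differed at least 2-fold. In the same fit 252 genes (2.25%) were called between tumour-bearing WT and control livers, and 686 (6.12%) between Stat3-deleted and tumour-bearing WT livers (2.89% higher and 3.23% lower). Without regard to the test, the livers' CPM ranges did not overlap for 222 genes higher (1.98% of those tested) and 206 lower (1.84%). Scaled by library totals alone, 511 genes were called and 27.2% of them were higher, against 45.2% in the analysis given here, since that scaling moved the median log2 fold change of all genes from −0.01 to −0.13. The number of calls also rested on the control livers, which were divided by a number that the labels give each liver and that runs lower in replicates 1 to 3 than in replicates 4 to 6: 47 genes were called against control replicates 1 to 3 alone and 332 against replicates 4 to 6 alone. The numbers of the Stat3-deleted livers form a run of their own, below those of all WT livers. The labels do not say what the numbers mark, and whatever they mark cannot be told apart from the Stat3-deleted group.

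Many genes that interferon induces had higher levels in the tumour-bearing Stat3-deleted livers than in controls. Of 9 immunity-related GTPases tested, 6 rose and none fell, and the median log2 fold change of the list was 1.71, against −0.01 for all genes tested. All 6 immunoproteasome genes rose (median 0.98), as did 12 of 43 antiviral genes (median 0.53), 3 of 12 genes of MHC class I and peptide loading (median 0.64), 3 of 16 interferon pathway regulators (median 0.36) and 1 of 8 guanylate-binding proteins (median 0.58). No member of these lists fell. Leaving out 1 library at a time gave 7 to 16 antiviral calls (7 without Stat3-deleted replicate 2 or 5) and 1 to 5 in MHC class I and peptide loading (1 without control replicate 1, 4, 5 or 6 or Stat3-deleted replicate 2 or 5, and 5 without control replicate 3). Calls among the regulators numbered 2 to 5 (5 without control replicate 3, Stat3-deleted replicate 6 or tumour-bearing WT replicate 6) and among guanylate-binding proteins 1 to 3 (3 without control replicate 3 or Stat3-deleted replicate 3). In tumour-bearing WT livers against the same controls the medians were −0.22, −0.03, 0.03, 0.03, 0.15 and −0.10, in that order of lists.

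Igtp (chr11:58199556-58207592, all positions in GRCm38.p6), an immunity-related GTPase also known as Irgm3, had the largest rise among named genes whose mean reached 10 CPM, apart from BC018473, which is described with the genes near Stat3. Its lowest, median and highest levels were 16.6, 20.9 and 99.2 CPM in controls, 71.5, 521 and 854 in Stat3-deleted livers and 22.1, 29.7 and 38.2 in tumour-bearing WT livers. Only the lowest Stat3-deleted liver, replicate 6, lay below the highest control, replicate 3. The log2 fold change against control was 3.77 ± 0.49 (SE, adjusted p = 0.000354), a 13.6-fold rise. Against tumour-bearing WT livers it was 4.05 ± 0.50 (adjusted p = 1.72e-05).

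The neighbouring Irgm2 (chr11:58214977-58222783), whose product regulates the other GTPases of the family, was at 5.21, 11.3 and 19.4 CPM in controls and 30.8, 47.8 and 83.1 CPM in Stat3-deleted livers. These ranges did not overlap, and the log2 fold change was 2.08 ± 0.32 (adjusted p = 0.000885). Iigp1, an effector GTPase that loads onto vacuoles, was the most abundant member. Its levels were 563, 675 and 1091 CPM in controls, 767, 4183 and 4552 in Stat3-deleted and 343, 595 and 846 in tumour-bearing WT livers, and replicates 6 and 3 were the lowest of the Stat3-deleted livers. It rose by 2.15 ± 0.33 on the log2 scale (adjusted p = 0.000857). Ifi47 rose by 1.71, and Irgm1, chosen after its values were seen, by 1.65. The sixth call, Tgtp1 (3.55), has a near-identical copy, Tgtp2, so its counts are uncertain. Gbp7, a guanylate-binding protein, rose by 1.95 ± 0.38 (adjusted p = 0.00611), from a control range of 35.9 to 77.8 CPM to 34.8 to 313 CPM. Stat3-deleted replicate 6 lay just below that control range, replicate 3 within it and the other 4 livers above it.

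The promoters shown are those of the called interferon genes with the largest rises, up to 4, among those that averaged 10 CPM or more and have a promoter window used here. Zbp1, Iigp1 and Tgtp1, which also rose by more than Gbp7, fell outside these limits. The sequences are those of RefSeq for GRCm38.p6, read 5′ to 3′ on the plus strand, and each ends shortly before the annotated transcript start. Capitals mark 2 motifs searched on both strands, GAAANNGAA (the core of the interferon-stimulated response element) and TTCNNNGAA (the palindrome that STAT dimers bind), which may overlap each other. The Igtp stretch lies at chr11:58199471-58199555, that of Irgm2 at chr11:58214862-58214961 and that of Gbp7 at chr3:142530190-142530332.
Igtp: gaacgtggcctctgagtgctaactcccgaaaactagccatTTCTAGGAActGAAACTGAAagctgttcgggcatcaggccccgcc
Irgm2: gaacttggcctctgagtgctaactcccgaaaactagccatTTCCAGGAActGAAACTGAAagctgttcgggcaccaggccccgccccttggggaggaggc
Gbp7: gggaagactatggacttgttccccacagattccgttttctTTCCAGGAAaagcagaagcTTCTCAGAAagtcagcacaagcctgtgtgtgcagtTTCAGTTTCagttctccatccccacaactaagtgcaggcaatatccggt
Igtp and Irgm2 hold the same 9 bases GAAACTGAA, and Gbp7 holds their reverse complement TTCAGTTTC. The window of Ifi47, from 250 bases before to 50 after the start, held no match to either motif.

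In the same 300-base windows of all 27025 genes of the promoter table, GAAANNGAA was found in 8.58% and TTCNNNGAA in 8.42%. Among the genes called higher in Stat3-deleted livers 30 of 194 with a window (15.5%) held GAAANNGAA, among those called lower 7.87%, and among all genes tested 7.28%. Of the interferon-list genes called higher 13 of 23 held it (56.5%), and of those tested but not called 17 of 35 (48.6%). The motif was thus found in both sets of interferon genes, those that passed the test and those that did not. TTCNNNGAA was found in 10.3% of genes called higher and 7.41% of genes called lower.

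Among antiviral genes the smallest adjusted p belonged to Zbp1 (chr2:173206612-173218959), a sensor of Z-form nucleic acids. It was at 3.34, 6.103 and 8.99 CPM in controls and 11.7, 39.3 and 61.3 CPM in Stat3-deleted livers, with no overlap, and rose by 2.54 ± 0.38 (adjusted p = 0.000682). Tumour-bearing WT livers were at 8.197, 10.8 and 23.6 CPM. Usp18, the protease that removes ISG15 from proteins, rose by 1.58, Ifit1, which binds foreign RNA caps, by 1.71, and Ifi27 by 0.87. The Stat3-deleted range of Usp18 was 7.63 to 53.6 CPM, and its lowest liver, replicate 6, lay within the control range of 7.099 to 10.2. Of the regulators, the transcription factor genes Irf7 and Irf1 rose by 1.76 ± 0.28 and 1.69 ± 0.34 (adjusted p = 0.000977 and 0.008), and Irf9, a DNA-binding subunit of the complex that type I interferon activates, by 0.70 ± 0.20 (adjusted p = 0.0479). For each of these regulators the lowest Stat3-deleted liver, replicate 6, lay within the control range.

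The immunoproteasome replaces the catalytic subunits of the standard proteasome and yields peptides for MHC class I. Its inducible subunit genes Psmb9 (1.63 ± 0.34), Psmb8 (1.28) and Psmb10 (1.10), the PA28 activator genes Psme2 (0.87 ± 0.16) and Psme1 (0.81), and the assembly factor gene Pomp (0.51) rose on the log2 scale. Psme2 ranged from 27.1 to 59.2 CPM in controls and from 65.01 to 99.97 CPM in Stat3-deleted livers, without overlap. It was the only 1 of the 6 genes of which this held. For each of the others the lowest Stat3-deleted liver, replicate 3 or 6, lay within the control range. Psmb9, as an example, was at 15.35 to 69.99 CPM in controls and 53.87 to 190.1 CPM in Stat3-deleted livers. Of 31 standard proteasome genes 2 rose and none fell (median 0.12). Tap1, the peptide transporter, rose by 1.44 ± 0.31 (adjusted p = 0.0115), the class I heavy chain H2-D1 by 0.68 and its partner B2m by 0.60. For Tap1, Stat3-deleted replicates 3 and 6 (45.67 and 31.8 CPM) lay within the control range of 20.87 to 62.22 CPM. MHC class II, carried by antigen-presenting cells, had 0 of 7 members called by edgeR, DESeq2 or limma, and 0 with an unadjusted p under 0.05 (median 0.10).

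Replicates 3 and 6 were the lowest Stat3-deleted livers for Igtp and Iigp1. Without them 6 of 9 immunity-related GTPases, 15 of 43 antiviral genes and 5 of 6 immunoproteasome genes were called. The 2 livers were chosen from these same values, so the counts without them are no independent check. With control replicates 1 to 3 as the only controls 1 immunity-related GTPase, Igtp, and no antiviral or immunoproteasome gene passed, with list medians of 1.59, 0.52 and 0.79; with replicates 4 to 6 as the only controls 6, 7 and 5 passed.

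**Figure D1:**
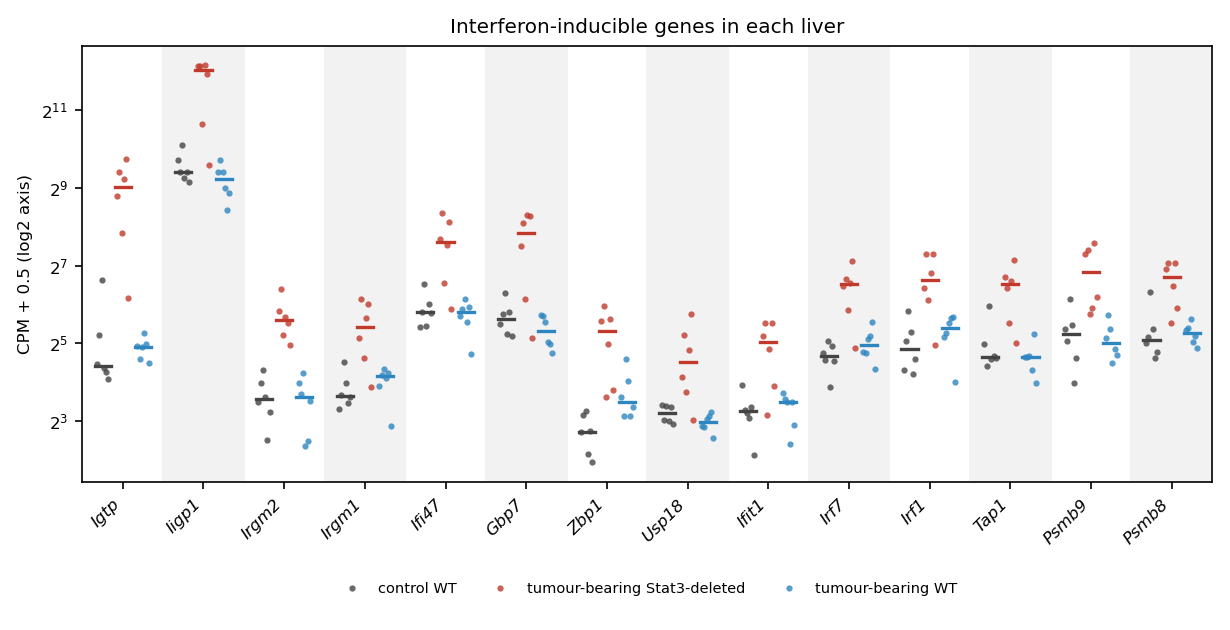
Levels of 14 interferon-inducible genes in each of 18 livers, as CPM plus 0.5 on a log2 axis; each point is a liver, grouped by colour (control WT, tumour-bearing Stat3-deleted, tumour-bearing WT; 6 livers each), and bars are group medians. For Irgm2 and Zbp1 the Stat3-deleted livers all lie above the controls, and for Igtp the medians are 20.9 CPM in controls and 521 CPM in Stat3-deleted livers.

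Positive acute-phase genes, the genes that inflammation raises in hepatocytes, were called in both directions, and 3 of them lay below the control level. Of 40 positive acute-phase genes tested 3 rose and 3 fell, with a median log2 fold change of −0.04; in tumour-bearing WT against control livers the median was 1.62. Leaving out 1 library gave 1 to 4 lower calls (1 without control replicate 5 or Stat3-deleted replicate 2 or 5) and 2 to 5 higher calls (5 when control replicate 2 or liver 6 of the tumour-bearing WT group was dropped). Fgl1 (chr8:41191434-41217978), which encodes a liver-secreted ligand of the T cell receptor LAG3, was at 268, 366 and 509 CPM in controls, 120.2, 160.4 and 213 in Stat3-deleted and 1618, 3228 and 5481 in tumour-bearing WT livers. The 3 ranges did not overlap. Fgl1 fell (−1.20 ± 0.24) against control (adjusted p = 0.00712), while in tumour-bearing WT livers it rose by 3.17.

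Saa1 (chr7:46740497-46743181), a serum amyloid A gene, was at 115, 202 and 559 CPM in controls and 10.7, 19.99 and 161 CPM in Stat3-deleted livers, of which only replicate 4 lay within the control range. Its log2 fold change was −2.52 ± 0.62 (adjusted p = 0.0235). Without that liver it was −3.67. In tumour-bearing WT livers Saa1 reached 5493 to 48555 CPM. Saa2 had the same high liver (1.03, 5.196 and 166 CPM, against 37.6, 83.8 and 223 in controls) and did not pass (−1.71 ± 0.89, adjusted p = 0.278); neither did Saa3 (−0.45 ± 0.33, adjusted p = 0.471). Saa1 and Saa2 are closely similar in sequence, so the split of tags between them is uncertain. Orm1, which encodes orosomucoid and was chosen after its values were seen, was at 689.8 to 1535 CPM in controls and 374 to 675 in Stat3-deleted livers, and fell (−0.98 ± 0.26, adjusted p = 0.0296).

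The 3 acute-phase members that rose included Il1rn, the antagonist of the IL-1 receptor (1.87 ± 0.37, adjusted p = 0.00712), and Cd14, the co-receptor for bacterial lipopolysaccharide (1.76 ± 0.37, adjusted p = 0.00935). Il1rn was at 1.44 to 5.01 CPM in controls and 6.28 to 19.7 CPM in Stat3-deleted livers, with no overlap. Lcn2 and Prtn3, 2 genes with high levels in tumour-bearing WT livers that were chosen after their values were seen, did not pass: Lcn2 was at 2.88 to 11.6 CPM in controls, 0.776 to 7.35 in Stat3-deleted and 98.2 to 747 in tumour-bearing WT livers, and Prtn3 at 0 to 1.56, 0.682 to 1.29 and 53.8 to 142. Of 9 neutrophil markers none was called by edgeR (4 had an unadjusted p under 0.05, DESeq2 called 1 and limma 0), and their summed level was 35.3 to 99.4 CPM in controls and 47.2 to 131 CPM in Stat3-deleted livers.

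Of 34 complement genes 5 fell and 1 rose (median −0.05). All 5 that fell, C9, Hc, C8a, C8b and C6, encode parts of the membrane attack complex or its precursor C5 (Hc); 3 to 5 complement genes were lower when 1 library was left out (3 without control replicate 5 or 6 or Stat3-deleted replicate 2, 3, 5 or 6). C9, which forms the pore, was at 254, 424 and 608 CPM in controls and 127, 149 and 207 CPM in Stat3-deleted livers and fell (−1.45 ± 0.21, adjusted p = 0.000573), with no overlap. Hc fell (−0.65 ± 0.12, adjusted p = 0.00367), from a control range of 491 to 626 CPM to 329 to 401 CPM in Stat3-deleted livers. In tumour-bearing WT livers Hc was higher than in controls (0.80) and C9 differed by −0.12 (adjusted p = 0.828). The gene that rose was C1qc (0.70 ± 0.17, adjusted p = 0.0213), a chain of the recognition molecule C1q made by macrophages. Of 27 coagulation and fibrinolysis genes none was called by edgeR (3 had an unadjusted p under 0.05, DESeq2 called 0 and limma 3). Among 24 negative acute-phase and other plasma proteins 2 rose, Ttr (transthyretin, 0.66 ± 0.17) and Apoh (0.66 ± 0.19).

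The Stat3 transcript itself was at 93.6, 110.0 and 148 CPM in controls, 99.4, 116 and 132 in Stat3-deleted livers and 163, 215 and 264 in tumour-bearing WT livers. The control and Stat3-deleted ranges overlapped (log2 fold change 0.08 ± 0.14, adjusted p = 0.803), and that small difference took the other sign when scaled by library totals (−0.038) or against control replicates 4 to 6 alone (−0.0029). The labels do not say which exons are deleted, and a 3′ tag outside the deleted part, or from cells other than hepatocytes, does not check the genotype. In the IL-6 and STAT3 signalling list 4 of 27 genes rose and 2 fell (median 0.09). Socs3, the feedback inhibitor, was at 0.575, 1.72 and 8.67 CPM in controls and 5.54, 7.68 and 18.8 CPM in Stat3-deleted livers, and passed narrowly (1.77 ± 0.52, adjusted p = 0.04897), losing the call in 13 of 18 fits that each left out a library. Pim3, a survival kinase, rose by 1.38 ± 0.32 (adjusted p = 0.0162), the receptor chain Il6ra by 1.09 and, outside the rule for named genes, the shared chain Il6st by 0.52. Cish, an inhibitor induced by growth hormone through STAT5, fell (−1.85 ± 0.48, adjusted p = 0.0291) and Tifa (−0.96). Nfkbia was the only one of 21 NF-kB and IL-1 response genes called (0.54), and Ccl9 the only one of 16 chemokine genes (0.64); DESeq2 called 1 and 4.

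**Figure D2:**
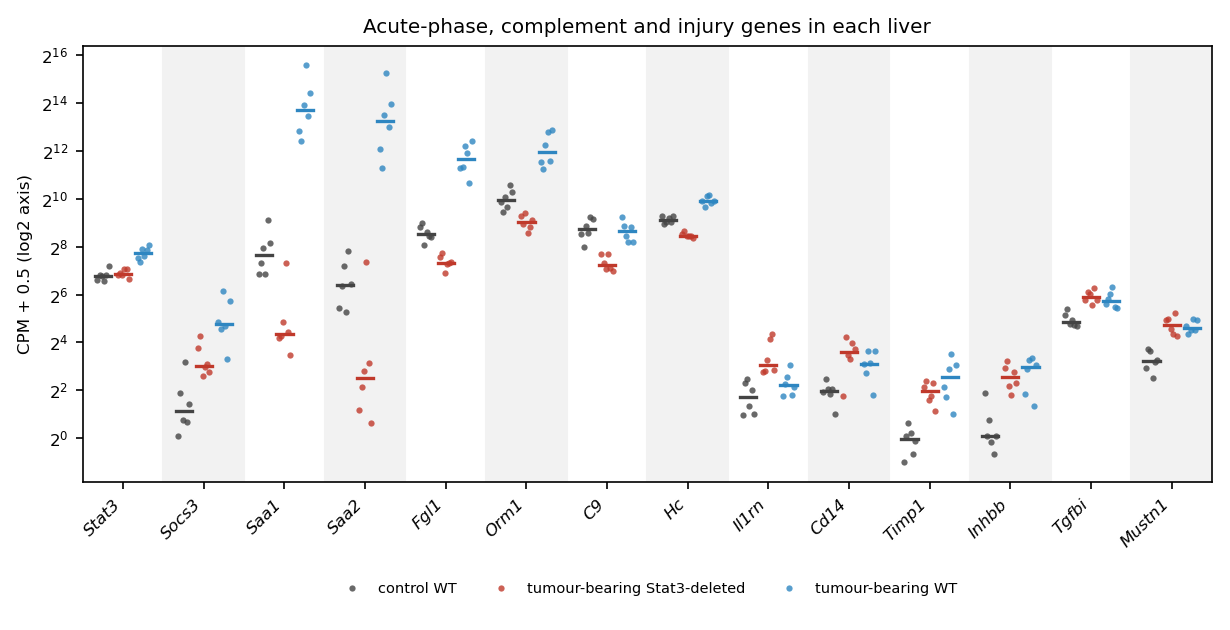
Levels of 14 acute-phase, complement and injury genes in each of 18 livers, as CPM plus 0.5 on a log2 axis; points are livers, bars are group medians and colours are the 3 groups of 6. Fgl1 and Hc are lowest in Stat3-deleted and highest in tumour-bearing WT livers, whereas Timp1, Tgfbi and Mustn1 lie above the controls in both tumour-bearing groups.

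Several genes were higher than in controls in both tumour-bearing groups and did not pass the test between those groups; apart from Timp1, Inhbb and Vsig4 these were chosen after their values were seen. The values against controls stand side by side here, and both comparisons use the same 6 control livers. Timp1 (chrX:20870166-20874737), an inhibitor of matrix metalloproteinases, was at 0 to 1.04 CPM in controls, 1.68 to 4.76 in Stat3-deleted and 1.54 to 10.9 in tumour-bearing WT livers, and rose by 2.83 ± 0.54 (adjusted p = 0.00604); between the tumour-bearing groups the difference was −0.73 ± 0.43 (adjusted p = 0.3704). Inhbb, the activin B subunit, rose by 2.47 ± 0.51 (adjusted p = 0.00864) in Stat3-deleted and by 2.68 in tumour-bearing WT livers. Tgfbi, a matrix protein induced by TGF-beta, was at 25.5 to 41.03 CPM in controls, 46.5 to 76.3 in Stat3-deleted and 42.2 to 78.1 in tumour-bearing WT livers, so that only the controls stood apart. Mustn1 rose by 1.55 ± 0.21 (adjusted p = 0.000392; 1.47 in tumour-bearing WT livers), Mgp, an inhibitor of calcification, by 1.44 (1.74), and Wfdc17 by 1.22 (1.57).

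Other genes that were higher in tumour-bearing WT livers were lower than control in Stat3-deleted livers, as Fgl1, Saa1, Orm1, Hc and C8a were. Wfdc21, again chosen after its values were seen, was at 2194 to 3808 CPM in controls, 1342 to 1902 in Stat3-deleted and 4733 to 6052 in tumour-bearing WT livers. Its log2 fold change was −0.91 ± 0.15 (adjusted p = 0.00148) in Stat3-deleted livers and 0.73 in tumour-bearing WT livers. Prg4, which encodes lubricin, fell (−1.12 ± 0.24, adjusted p = 0.0124) and was 1.55 higher in tumour-bearing WT livers.

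Among macrophage genes a few markers were called, all higher. Of 16 Kupffer cell markers 3 rose and none fell (median 0.70; 0.72 in tumour-bearing WT livers), and all 16 had a log2 fold change above 0. The summed level of the list was 649 to 1535 CPM in controls and 1108 to 2700.0 CPM in Stat3-deleted livers. Vsig4, a complement receptor of resident macrophages, rose by 0.87 ± 0.22 (adjusted p = 0.0266) and Cd5l, a secreted macrophage protein, by 1.04. Of 20 recruited monocyte and macrophage markers 3 rose, Cd68 (1.14), Lgals3 (1.07) and Mpeg1 (1.01), while 5 of the 20 had a log2 fold change below 0 and the median was 0.39. The summed level of this list was 2088 to 3341 CPM in controls (median 2532) and 2289 to 3564 CPM in Stat3-deleted livers (median 2404). Of 23 endothelial markers 3 rose, Flt4 (0.79), Clec4g (0.69) and Stab2 (0.70). Scaled by library totals, no Kupffer or recruited macrophage marker was called and 1 endothelial marker was; the list medians were then 0.56, 0.26 and 0.07. Against control replicates 1 to 3 alone no marker of either macrophage list was called, with medians of 0.42 and 0.07. Leaving out 1 library gave 0 to 5 Kupffer calls (0 without control replicate 4 or Stat3-deleted replicate 2 or 5, 1 without control replicate 1 or 6 or Stat3-deleted replicate 3, and 5 without control replicate 3). It gave 0 to 4 recruited macrophage calls (0 without control replicate 1, 4, 5 or 6 or Stat3-deleted replicate 5, and 1 without Stat3-deleted replicate 2 or 3), and 0 to 4 endothelial calls (0 without Stat3-deleted replicate 5, and 1 without control replicate 4 or Stat3-deleted replicate 2). Jchain and Mzb1, 2 of 4 tested B and plasma cell markers, fell (−2.50 ± 0.53 and −1.77 ± 0.49, adjusted p = 0.01004 and 0.0392). Control ranges were 2.604 to 36.1 and 0.822 to 5.18 CPM, and Stat3-deleted ranges 1.085 to 4.784 and 0.376 to 1.03 CPM, overlapping for both genes. Against control replicates 4 to 6 alone no member of that list was called. The median summed level of the list was 135.4 CPM in controls and 142.9 CPM in Stat3-deleted livers. None of 8 T and NK cell markers was called by edgeR, DESeq2 or limma, and none had an unadjusted p under 0.05. Among 22 stellate cell and matrix genes Timp1 and Cygb, a globin of stellate cells, rose (Cygb 1.17 ± 0.19, adjusted p = 0.000977) and Rgs5, a pericyte gene, fell (−1.46 ± 0.26, adjusted p = 0.003198). The part of these cell markers in the interferon and acute-phase results was not tested.

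**Figure D3:**
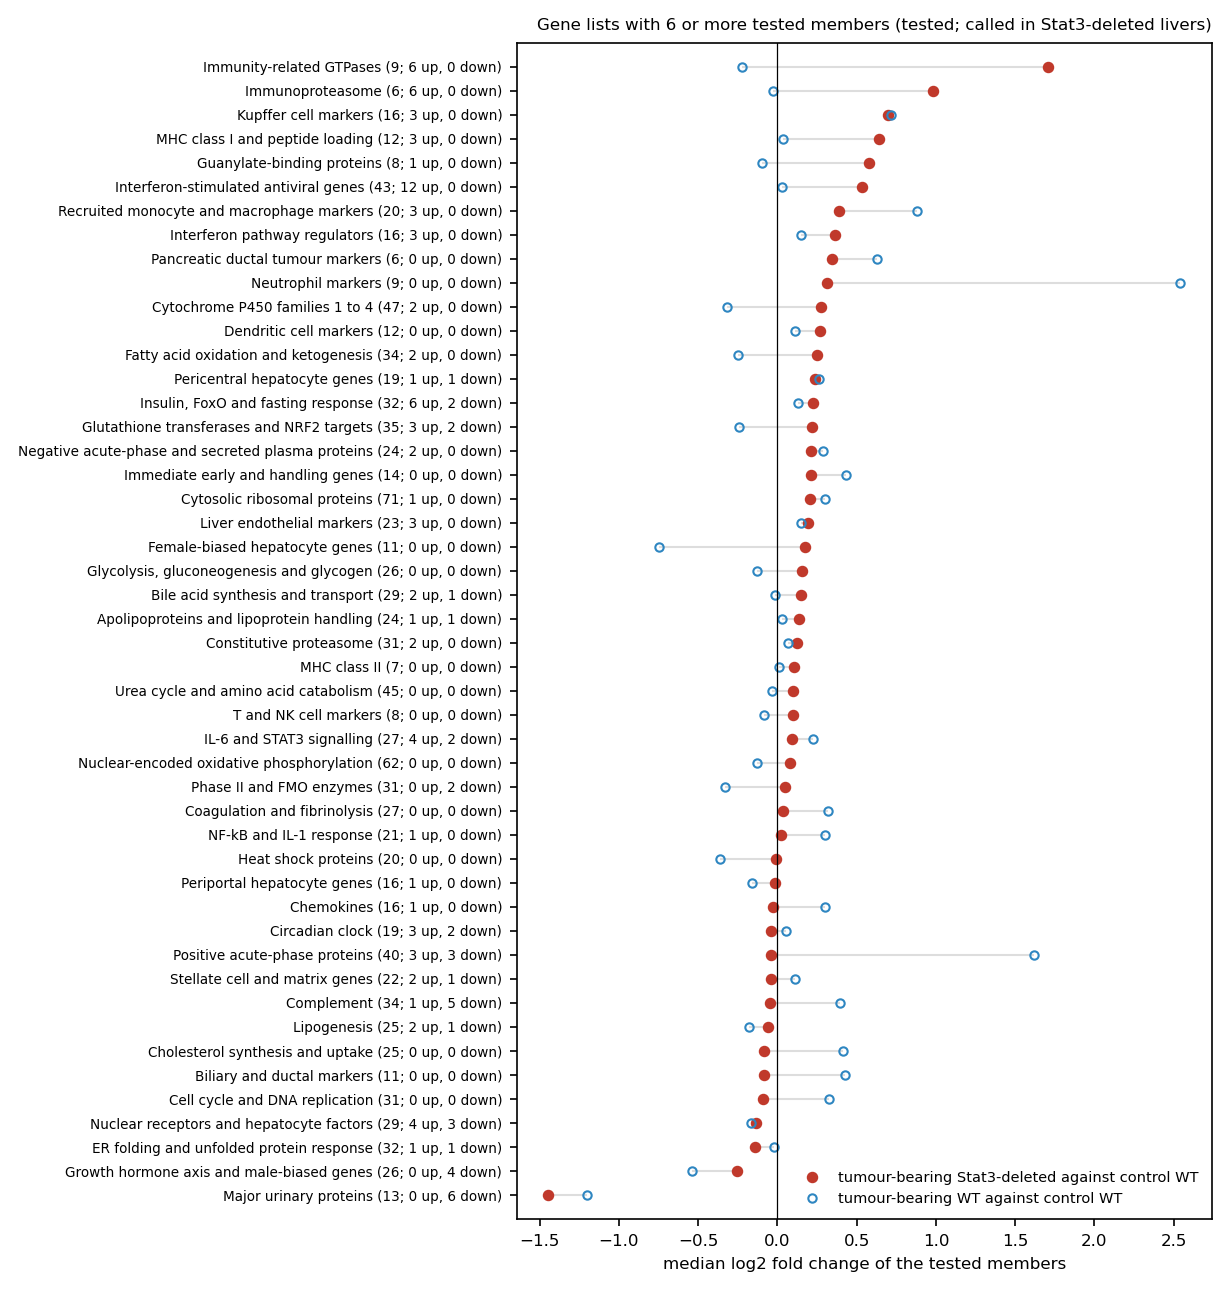
Median log2 fold change of the tested members of each gene list with 6 or more tested members, in tumour-bearing Stat3-deleted against control WT livers (filled) and tumour-bearing WT against the same controls (open); the labels give members tested and members called higher and lower in Stat3-deleted livers. Immunity-related GTPases stand at 1.71 and −0.22, positive acute-phase proteins at −0.04 and 1.62, and major urinary proteins at −1.45 and −1.20.

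Several genes of growth hormone action and male-type secretion were lower, and most of the wider list was not called. Of 13 major urinary protein genes 6 fell and none rose (median −1.45), and of 26 growth hormone axis and male-biased genes 4 fell, none rose and 22 were not called (median −0.25). The summed level of the growth hormone list was 9876 to 23410 CPM in controls (median 15500) and 14680 to 23320 CPM in Stat3-deleted livers (median 21050), so its sum was not lower. Against control replicates 1 to 3 alone neither list had a call, and the medians were −0.64 for urinary proteins and 0.05 for the growth hormone list. limma called 1 and 2 of them. Leaving out 1 library gave 3 to 8 urinary protein calls (3 without control replicate 5 or 6 or Stat3-deleted replicate 1, 3, 5 or 6). It gave 1 to 5 growth hormone calls (1 without control replicate 6 or Stat3-deleted replicate 2, 3 or 5, and 2 without control replicate 4 or 5). Mup20, which encodes the male pheromone darcin, was at 865, 2336 and 3004 CPM in controls and 117, 444 and 574 CPM in Stat3-deleted livers, with no overlap, and fell (−2.54 ± 0.45, adjusted p = 0.00318); it fell (−1.83) in tumour-bearing WT livers. The urinary protein genes are near-identical copies, so their separate counts are uncertain. Onecut1 (chr9:74861921-74889648), which encodes the hepatocyte factor HNF6, had the largest fall among genes whose mean reached 10 CPM outside the urinary protein family. It was at 4.37, 15.4 and 90.1 CPM in controls and 0.409, 1.77 and 4.14 CPM in Stat3-deleted livers, and fell (−3.88 ± 0.62, adjusted p = 0.00115). Ugt2b38 and Ugt2b37, a pair of similar glucuronosyltransferase genes, fell (−2.56 ± 0.69 and −2.40 ± 0.50, adjusted p = 0.03295 and 0.008702). These falls were also present in tumour-bearing WT livers (−2.16, −3.55 and −2.45).

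Of 32 genes of insulin signalling, FoxO and fasting 6 rose and 2 fell (median 0.23); leaving out 1 library gave 3 to 9 higher calls (3 without control replicate 3 or Stat3-deleted replicate 2, 3 or 5). Lpin1 (chr12:16535669-16653903), a phosphatidic acid phosphatase and co-activator, was at 49.6, 94.1 and 138 CPM in controls, 342, 365 and 474 in Stat3-deleted and 38.04, 62.4 and 400.0 in tumour-bearing WT livers. It rose by 2.02 ± 0.45 (adjusted p = 0.01295), a 4.04-fold change, without overlap with the controls. Lpin2 rose by 0.80 ± 0.19 (adjusted p = 0.0169), and Foxo1, the transcription factor that insulin restrains, by 0.85 ± 0.20 (adjusted p = 0.0157). Fkbp5, a glucocorticoid-induced chaperone partner, was at 7.81 to 34.97 CPM in controls and 47.7 to 94.3 CPM in Stat3-deleted livers (2.13 ± 0.56, adjusted p = 0.0297). Irs2, the insulin receptor substrate, fell (−2.19 ± 0.44, adjusted p = 0.00763), from 10.4, 20.7 and 71.4 CPM to 3.76, 5.41 and 10.2 CPM, again without overlap. Irs2 and Lpin1 also passed against tumour-bearing WT livers (−1.46 and 1.69). Fkbp5 was at 13.04 to 221.0 CPM in tumour-bearing WT livers, and its highest, replicate 6, lay above all Stat3-deleted livers. That liver was also the highest of its group for Lpin1, Foxo1 (93.08 CPM), Pim3 (430.6), Tef (105.8), Usp2 (41.47), Cyp2c37 (242.5) and Cyp2c54 (262.6). Of these only Foxo1 was below the Stat3-deleted range. For Lpin2 (168.6 CPM) it was not the highest.

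Clock genes moved in both directions. Of 19 tested, Tef (1.06 ± 0.23), Usp2 (1.64 ± 0.41) and Nr1d2 rose, and Clock (−0.71 ± 0.17) and Arntl fell. Tef, an output transcription factor, was at 36.6 to 57.5 CPM in controls and 84.7 to 115 CPM in Stat3-deleted livers. Clock, a core activator, was at 46.2 to 71.4 CPM in controls and 28.7 to 37.1 CPM in Stat3-deleted livers. Neither pair of ranges overlapped. In tumour-bearing WT livers Tef was at 29.74 to 105.8 CPM and Clock at 27.3 to 54.29 CPM, so each overlapped the Stat3-deleted range. For Clock, tumour-bearing WT replicates 3 to 6 lay below all controls. The labels used here give no hour of collection and no feeding state.

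Among 29 nuclear receptors and hepatocyte factors 4 rose and 3 fell (median −0.14). The glucocorticoid receptor gene Nr3c1 fell (−0.76 ± 0.16, adjusted p = 0.00914) and Prox1 (−1.06 ± 0.23, adjusted p = 0.0129), beside Onecut1. Foxa3 rose by 0.80, and Nr0b2, the bile acid-induced repressor SHP, by 0.94 ± 0.23 (adjusted p = 0.0235). Of 29 bile acid genes 2 rose and 1 fell. Those that rose were Abcg8, a sterol transporter of the canalicular membrane (1.04 ± 0.19, adjusted p = 0.00346), and Nr0b2. Slc10a2, the apical bile acid transporter of cholangiocytes, fell (−1.33 ± 0.26, adjusted p = 0.00681). It was at 6.33 to 11.98 CPM in controls and 2.97 to 5.05 CPM in Stat3-deleted livers. Cyp2c37 (1.40 ± 0.28) and Cyp2c54 (1.04 ± 0.26) were the calls among 47 cytochrome P450 genes (median 0.28). Of 35 glutathione and NRF2 genes 3 rose and 2 fell; Gstt1 rose by 0.78, Ephx1 by 0.69, and Nfe2l2, the gene of NRF2 itself, fell (−0.84).

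In lipid handling Apob, the structural protein of very low density lipoprotein, fell (−1.25 ± 0.27, adjusted p = 0.0124); it was at 986, 1390.5 and 2040.1 CPM in controls and 326, 531 and 1233 CPM in Stat3-deleted livers, and the highest Stat3-deleted liver lay within the control range. The fatty acid elongase Elovl6 fell (−0.99), and Acadvl (0.43) and Eci2 (0.49), 2 of 34 fatty acid oxidation genes, rose. The zonal markers gave few calls: Hsd17b6, in the periportal list, rose by 1.30 ± 0.27 (adjusted p = 0.00948) and Tbx3, a pericentral transcription factor, fell (−1.13 ± 0.21, adjusted p = 0.00539). In the endoplasmic reticulum list of 32 genes Herpud1 rose by 1.00 and the chaperone Hsp90b1 fell (−1.05). Of 71 cytosolic ribosomal protein genes 1 was called by edgeR, higher, and 9 higher and 1 lower by limma. edgeR called no member of the lists for cholesterol synthesis (25 genes), glycolysis and gluconeogenesis (26), urea cycle and amino acids (45), heat shock proteins (20), cell cycle (31) and oxidative phosphorylation (62). At an unadjusted p under 0.05 these had 3, 9, 6, 3, 4 and 6 genes; DESeq2 called 0, 1, 0, 1, 0 and 1 of them and limma 0, 6, 4, 0, 2 and 3. Nor did it call any dendritic cell marker (12 tested), biliary marker (11), immediate early gene (14) or female-biased gene (11); 4, 2, 4 and 1 had an unadjusted p under 0.05, DESeq2 called 2, 0, 2 and 1 and limma 1, 0, 4 and 1.

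Among the largest changes outside the lists, Wdfy1, which encodes an endosomal lipid-binding protein, was at 1.73, 3.25 and 5.88 CPM in controls and 11.3, 23.9 and 38.2 CPM in Stat3-deleted livers. Its ranges did not overlap, and it rose by 2.90 ± 0.45 (adjusted p = 0.000956). Meiob, known for its part in meiosis, rose by 2.03 ± 0.32 (adjusted p = 0.000977), with 5 of 6 Stat3-deleted livers above the control mean, and Phf11c rose by 1.71. In the other direction Cib3, which encodes a calcium-binding protein, was at 18.2, 32.5 and 58.4 CPM in controls and 0.919, 5.14 and 12.01 CPM in Stat3-deleted livers, and fell (−2.67 ± 0.41, adjusted p = 0.000857) without overlap. Map3k1, a kinase of the JNK pathway, fell (−1.26 ± 0.24, adjusted p = 0.00581), the solute carrier Slc10a5 (−1.47) and Igfbp5, which binds insulin-like growth factors, (−1.27).

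**Figure D4:**
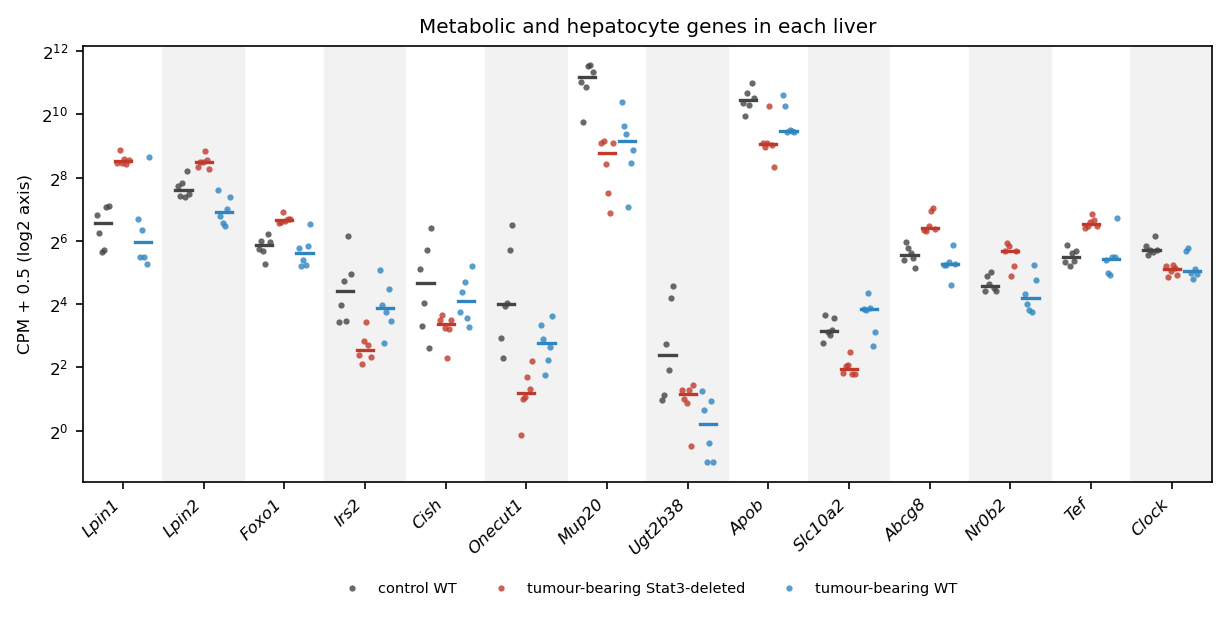
Levels of 14 metabolic and hepatocyte genes in each of 18 livers, as CPM plus 0.5 on a log2 axis; points are livers, bars are group medians and colours are the 3 groups of 6. Lpin1, Lpin2, Foxo1, Abcg8 and Tef are higher in all Stat3-deleted livers than in all controls, and Irs2, Onecut1, Mup20, Slc10a2 and Clock are lower in all of them.

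The floxed locus lies on chromosome 11. Within 20 Mb of Stat3 (chr11:100886806-100939594) 32 of 421 tested genes were called (7.60%; 16 higher and 16 lower), against 4.60% on the rest of chromosome 11 and 4.75% on the other chromosomes. BC018473 (chr11:116752167-116757883) and its neighbour St6galnac1 (chr11:116765025-116775507), 15.81 and 15.83 Mb from Stat3, had 0 counts in all 12 WT livers, control and tumour-bearing. BC018473 had 191 to 349 counts and St6galnac1 18 to 57 counts in each of the 6 Stat3-deleted livers, at least 74.4-fold and 9.66-fold above a floor of 3 counts per library. Mxra7 and Srsf2, which follow on the chromosome, fell (−1.79 ± 0.29 and −0.87 ± 0.13, adjusted p = 0.00115 and 0.000857), and Dhx40, on the other side of Stat3, (−1.13 ± 0.14, adjusted p = 0.000287). Apart from BC018473 these neighbours were chosen after their values were seen. Tumour-bearing WT livers had log2 fold changes against controls of −0.11, 0.25 and −0.07 in these 3 genes. Loss of Stat3 and inherited differences linked to the engineered allele cannot be told apart. Of the genes described above, Socs3, Ccl9, Wfdc17, Wfdc21, Apoh and Cygb lie within this window, as do the called antiviral genes Dhx58 and Lgals3bp and the proteasome gene Psmd3, which are named for their position. Igtp, Irgm2 and Ifi47 lie on chromosome 11 outside that window, and Iigp1, Zbp1 and Gbp7 on other chromosomes. Within 20 Mb of Alb, whose promoter drives Cre, 13 of 153 genes were called (8.50%), against 2.94% on the rest of chromosome 5. Among them were Clock, Ugt2b37, Ugt2b38 and Jchain. Ugt2b37 and Ugt2b38 were also lower than control in tumour-bearing WT livers (−2.45 and −3.55). Whether the Cre gene itself lies near Alb was not tested.

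Genes called lower had a longer genomic span, by the median, than genes called higher. The median genomic span was 14.9 kb for genes called higher, 38.3 kb for genes called lower and 23.4 kb for genes not called. When the tested genes were ordered by span and divided into 5 groups of equal size, 3.17% of the shortest group were called higher and 1.97% lower, against 1.30% higher and 3.84% lower in the longest. The median log2 fold change went from 0.06 in the shortest to −0.14 in the longest group, and from 0.07 to −0.08 in tumour-bearing WT against control livers. The largest falls included RNAs retained in the nucleus, Malat1 (−1.37 ± 0.30, adjusted p = 0.0129) and Kcnq1ot1 (−1.33 ± 0.29, adjusted p = 0.0124). Malat1 was at 506 to 1078 CPM in controls and 150.2 to 426 CPM in Stat3-deleted livers. Of 19 small nucleolar RNAs 6 fell (31.6%, against 2.66% of all genes) and none rose, with a median of −1.47; in tumour-bearing WT livers the median was −0.99. Snord89 (−2.47 ± 0.50) and Snora30 (−1.93 ± 0.39) fell without overlap and Snora81 (−2.04). In tumour-bearing WT livers Malat1 was at 292.9 to 1079 CPM and Snord89 at 22.55 to 201.1 CPM. Replicates 3 to 6 of that group lay below all controls for both genes, and for Kcnq1ot1 only replicate 6 did. Replicates 1 and 2 of the tumour-bearing WT group were not below the controls for Malat1 or Snord89. What lowered these RNAs was not tested. Small nucleolar RNAs lie within the introns of host genes, and how the counting treated overlapping genes and strand is not given in the sources used here.

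**Figure D5:**
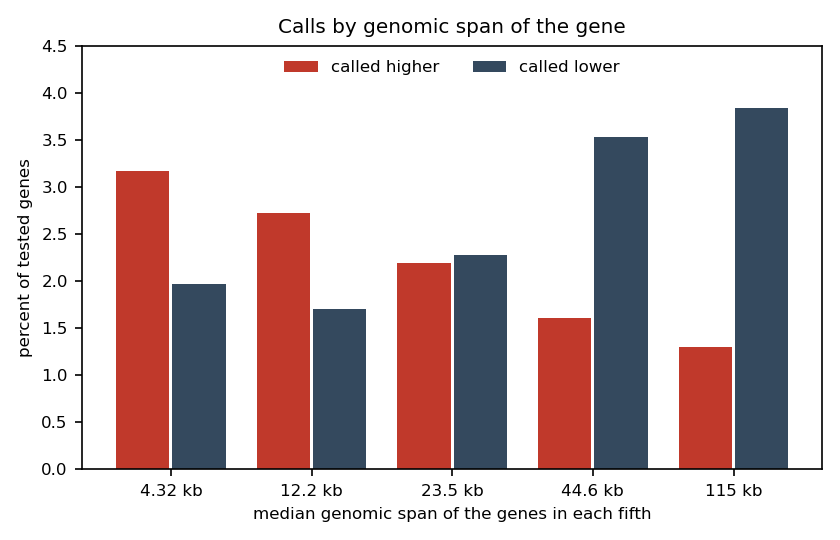
Percent of tested genes called higher and called lower in Stat3-deleted against control livers, for 5 groups of equal size ordered by genomic span (x axis, median span of each group in kb). Calls of higher genes decline from 3.17% to 1.30% and calls of lower genes go from 1.97% to 3.84% from the shortest to the longest group, with the lowest share (1.70%) in the second.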

How the data were processed

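Total RNA of 18 mouse livers had been made into QuantSeq 3′ FWD libraries, per the labels' protocols. The authors deposited 1 table of whole-number gene counts for all 18 libraries; STAR and the build mm10 are named in the submitters' processing notes. No source used here gives STAR's version, the counter, the gene annotation or whether strand was used. Of 24421 symbols, 27 had been turned into dates by a spreadsheet (0.103% to 0.166% of a library's counts) and were left out. Positions came from RefSeq for GRCm38.p6, the patched form of mm10, by symbol (24274 of 24394 matched).

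Genes passing edgeR's filterByExpr (11218) were scaled by TMM and fitted with the quasi-likelihood model of edgeR 4.0.16 (R 4.3.3) over all 18 libraries, with 1 coefficient per group, so that the 3 groups shared the estimate of spread (15 residual degrees of freedom; common biological coefficient of variation 0.281). Benjamini-Hochberg adjustment ran over all genes tested, and an adjusted p under 0.05 was a call. Standard errors are those implied by the log2 fold change and its F statistic. The code was tested on simulated data. Labels give separate livers in each group; if any share an animal, p-values measure technical spread only. The labels state no pairing by replicate number, and none was used in the main fit. Deviations of same-numbered livers correlated between −0.126 and 0.167 for Stat3-deleted and control livers and between −0.0825 and 0.212 for the 2 tumour-bearing groups. For tumour-bearing WT and control livers, whose label numbers mostly adjoin, they correlated between −0.0961 and 0.309. Livers of different numbers were not compared, so these values do not decide whether samples are paired.

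Genes were named by a rule: Stat3, Socs3, the Saa genes and Alb, the 15 largest calls in each direction with a mean of at least 10 CPM (without numbered gene models and urinary proteins), and up to 4 called members of each of 52 lists by adjusted p. The comparison, the rule and the lists were chosen with earlier results of these data known. Alternatives used DESeq2 1.42.0, limma 3.58.1 (voom with quality weights), other scalings, filters and subsets of libraries. Precision is limited by 6 livers per group and by counting error in genes of few counts.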

Additional observations from a re-analysis of the deposited data

Results flagged for a closer look

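In 20 of 246 sets of 6 livers (123 named genes in the control and Stat3-deleted groups; 8.13%), the highest or lowest liver lay so far out that its gap to the next, as a share of the whole log2 range, was above Dixon's critical value for 6 samples; about 1 in 20 sets would do so by chance. No explanation was tested.

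In the Stat3-deleted group replicate 4 stood out for Saa1 (161 CPM, next 28.3; share 0.646), Saa2 (166 and 8.35; 0.626) and Il6ra (79.6 and 44.2; 0.749) as the highest liver, and for Cish (4.36 and 8.79; 0.676) and Wfdc21 (1342 and 1717; 0.707) as the lowest. Replicate 6 was the lowest for Irf9 (47.7 and 76.8; 0.632), C8b (341 and 508; 0.633) and Flt4 (19.01 and 25.7; 0.639). Replicate 2 was the highest for Lpin1 (474 and 385; 0.637) and Srsf2 (44.2 and 32.3; 0.652) and the lowest for Ephx1 (267 and 357; 0.683). Replicate 5 was the lowest for Ugt2b38 (0.22 and 1.33; 0.704) and the highest for Trib3 (23.1 and 17.6; 0.761).

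In the control group replicate 3 was the highest liver for 4 genes: Tap1 (62.2 CPM, next 31.1; share 0.638), Psme1 (210.3 and 143; 0.804), Meiob (20.4 and 12.7; 0.781) and Saa3 (57.03 and 29.2; 0.804). Replicate 2 was the highest for Fkbp5 (34.97 and 13; 0.666), replicate 6 the highest for Mxra7 (5.85 and 3.97; 0.684) and replicate 4 the lowest for Cyb561 (1.35 and 4.31; 0.666).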

How the results depend on the processing

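The 544 calls (246 higher, 298 lower) numbered 894 (413 and 481) when the 12 libraries were fitted alone, 860 (396 and 464) with DESeq2 and 1318 (607 and 711) with limma; of the 544 genes, 524, 542 and 526 were among them. Library totals in place of TMM gave 511 calls, 139 of them higher. Control replicates 1 to 3 alone gave 47 calls (18 and 29) and replicates 4 to 6 alone 332 (160 and 172); MHC class II genes then had medians of −0.48 and 1.02, and female-biased genes −0.63 and 1.34. Leaving out 1 library at a time gave 258 to 783 calls (783 without tumour-bearing WT replicate 6), 126 to 358 higher and 126 to 497 lower. The count fell by over 1.5 times without control replicates 1 (342), 4 (295) or 5 (361) and without Stat3-deleted replicates 2 (272), 3 (279) or 5 (258); the cause was not tested. Without Stat3-deleted replicate 4, 497 genes were lower, and without replicate 6, 171. Other settings stayed within 1.5 times of the 3 counts: RLE factors 534, no filter 469, the stricter filter 541, and a fit with the replicate number as a block 570 (477 shared). The block is given only here, since the labels do not state that the numbers pair the samples. Of 2 settings chosen after seeing the data, thinning every library to the smallest total gave 474 calls (436 shared) and leaving out Stat3-deleted replicates 3 and 6 gave 210 (137 higher, 73 lower).

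Of the genes named, Stat3 alone took the other sign under an alternative, −0.038 by library totals and −0.0029 against control replicates 4 to 6 alone. Calls that leaving out 1 library can end include Socs3, Irf9, Saa1, Orm1, Il6st, Cish, C6, C8b, H2-D1, B2m, Pomp, Vsig4, Cd5l, Cd68, Mpeg1, Fkbp5 and Nr0b2; Igtp, Iigp1, Irgm2, Zbp1, Irf7, Fgl1, C9, Hc, Timp1, Tgfbi, Mustn1, Onecut1, Mup20, Irs2 and Lpin1 kept theirs in all 18 such fits. Genes under about 1 CPM in a group rest on few counts. Leaving out 1 library also moved many other list counts by over 1.5 times. Among them IL-6 and STAT3 signalling had 2 to 6 higher and 0 to 3 lower, and clock genes 1 to 4 and 1 to 2. Nuclear receptors and hepatocyte factors had 1 to 4 higher, and glutathione and NRF2 genes 1 to 5 and 1 to 3. Higher calls numbered 1 to 9 among cytochrome P450 genes and 0 to 5 among negative acute-phase and other plasma proteins. They numbered 0 to 5 among ribosomal protein genes, 0 to 4 among standard proteasome genes and 0 to 3 among fatty acid oxidation genes.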
